A study of Mus musculus with 6 samples.

Results

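Fibroblast and extracellular matrix genes, 40 in all, were followed through 6 RNA libraries of VGB6, a mouse line of embryonic stem (ES) cells, 3 of them wild type (WT) and 3 with a ZRSR2 knockout (KO). ZRSR2 is a splicing factor that acts at the 3′ splice site of minor, U12-type introns. The genes were chosen by name as markers of feeder cells or of differentiated cells, and the introns of each were those that lie inside its RefSeq span on its strand. Of the 40 genes, 38 held 719 of the 219945 listed introns. Tagln and Cav1 held none and were not analysed here. RNA was polyA-selected, and each library carries the number 2, 3 or 5 behind a letter P in its title (P2, P3 and P5, 1 library of each genotype). The labels do not explain the letter, do not say whether feeder cells were used, how the knockout was made or how many clones it came from, and do not say that libraries came from separate cultures. The spread behind each p-value is therefore one between libraries, and may be no more than technical.

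Fibroblasts build the interstitial matrix: they secrete fibrillar collagens, which lysyl oxidases cross-link, together with glycoproteins and small proteoglycans that bind the fibrils. Many of the same cells also carry contractile proteins of the actin cytoskeleton. ES cells make little fibrillar collagen, whereas mouse embryonic fibroblasts, the usual feeder layer under ES cells, and mesenchymal cells that arise when ES cells differentiate make much of it. Fibronectin, SPARC and the collagen chaperone encoded by Serpinh1 are made by a wider range of cells.

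The readouts per gene were both counts of reads. Its level is the sum of reads spliced across its introns per 1000000 spliced reads of the library (CPM), and its unspliced reads are those counted at its exon-intron boundaries. Spliced reads numbered between 19801687 (WT P2) and 63623214 (WT P5) per library, and the genes took 0.285, 0.251 and 0.250% of them in WT P2, P3 and P5 and 0.331, 0.302 and 0.192% in KO P2, P3 and P5. Zrsr2 itself was at 33.3, 38.9 and 33.5 CPM in WT and at 0.533, 0.382 and 0 CPM in KO (log2 change -6.70, SE 0.59, edgeR quasi-likelihood test, Benjamini-Hochberg adjusted p = 0.0218). The ES cell label held against its markers: Pou5f1 was at 363 to 685 CPM and Nanog at 53.4 to 135 CPM, and 14 of 15 pluripotency markers had listed introns, none at 0 in all libraries, with a summed level of 1777 to 2027 CPM.

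Calls among these genes came from the title numbers, and none from the genotypes. Fibrillar collagens, biglycan, periostin, lysyl oxidase, thrombospondin 1 and S100a6 were highest in the P2 libraries, lower in P3 and lowest in P5, in WT and in KO alike. In a model with the title number and the genotype, 5 of the 36 genes that passed the filter on low counts fell from P2 to P5: Postn, Bgn, Lox, Col5a2 and S100a6. Across all 16954 genes tested the called share was 0.0531% (9 genes, all lower in P5, of which these are 5). The other 4, named after their values were seen, were Ift88, Ltbp2, Serpina3h and Sftpb. With DESeq2 13 of the genes fell, against 0.423% of all genes. With the genotype term left out of the edgeR model none did, of these genes or of all.

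The upstream sequences of genes at both ends of this range are shown, because the comparison rests on genes that fell together beside matrix genes that did not. They are the 120 bases before the annotated start, from RefSeq (GRCm38.p6), on the strand of the gene, with TATAAA or CCAAT in capitals on either strand. Of the 40 genes, 24 have an entry, with 28 starts, whereas Col5a2, Lox, Fn1 and 13 others have none. The fallen genes with an entry are Postn (second of 2 starts, chr3:54360987-54361106, + strand), S100a6 (chr3:90612774-90612893, + strand) and Bgn (chrX:73483481-73483600, + strand). Col1a2 (chr6:4505498-4505617, + strand) stands for the type I collagens. Sparc (chr11:55420081-55420200, - strand) and Fstl1 (chr16:37776935-37777054, + strand) are matrix genes that were not lower in both P5 libraries.
Postn: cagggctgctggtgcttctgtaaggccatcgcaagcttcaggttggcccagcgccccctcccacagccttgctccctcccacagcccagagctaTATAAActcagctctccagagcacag
S100a6: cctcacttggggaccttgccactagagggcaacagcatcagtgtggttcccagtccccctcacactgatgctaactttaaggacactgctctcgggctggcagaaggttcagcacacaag
Bgn: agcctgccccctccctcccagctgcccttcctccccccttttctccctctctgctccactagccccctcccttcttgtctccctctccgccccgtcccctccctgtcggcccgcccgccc
Col1a2: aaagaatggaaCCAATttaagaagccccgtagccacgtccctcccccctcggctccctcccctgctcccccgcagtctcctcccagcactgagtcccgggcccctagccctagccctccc
Sparc: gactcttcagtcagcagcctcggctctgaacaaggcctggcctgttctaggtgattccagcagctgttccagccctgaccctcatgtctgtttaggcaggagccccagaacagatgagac
Fstl1: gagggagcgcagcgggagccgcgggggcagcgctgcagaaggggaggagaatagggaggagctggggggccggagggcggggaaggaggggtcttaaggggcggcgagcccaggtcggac
The printed Postn window holds TATAAA with its first base at -26 from the start, and the Col1a2 window holds CCAAT at -109. The window of the first Postn start (chr3:54359147-54359266), not printed, holds neither TATAAA nor CCAAT. The windows of S100a6, Bgn, Sparc and Fstl1 hold neither run of letters. Over the same 120 bases, TATAAA is in 6.34% of 32851 RefSeq promoters and at 4 of the 28 starts (Col3a1, Postn, S100a4 and Vim), and CCAAT is in 21.3% of promoters and at 5 of the 28 (Cald1, Col1a2, Tpm1, Twist1 and Vim).

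Fibrillar collagens, the rope-like trimers that carry tension in connective tissue, had a summed level of 398, 191 and 93.8 CPM in WT P2, P3 and P5 and of 463, 314 and 50.6 CPM in KO. Each of the 5 followed the order P2, P3, P5 in both genotypes. Col1a1, which encodes the main chain of type I collagen (chr11:94936224-94953042 in mm10), was at 118, 66.0 and 35.2 CPM in WT and at 130, 85.6 and 17.1 CPM in KO. Col1a2, the partner chain, was at 144, 60.8 and 30.6 CPM in WT and at 167, 105 and 11.6 CPM in KO. Both P5 libraries were thus below all P2 and P3 libraries for both chains, while the genotypes overlapped. Neither passed the test in edgeR with all libraries and the filter, with an adjusted p of 0.106 for Col1a1. DESeq2 called both (adjusted p = 2.21e-14 for Col1a1 and 0.0102 for Col1a2). So did edgeR without a filter, and without WT P2, WT P5 or KO P5.

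Col5a2 encodes a chain of type V collagen, which sets the diameter of type I fibrils (chr1:45374331-45503282). It was at 60.6, 30.3 and 4.43 CPM in WT and at 96.9, 73.5 and 7.81 CPM in KO. The P5 libraries were lowest and P2 highest in each genotype, a P2 over P5 ratio of 13.7 in WT and 12.4 in KO. The log2 change from P2 to P5 was -3.70 (SE 0.19, edgeR adjusted p = 0.00268), and that from P3 to P5 was -3.03 (SE 0.19, edgeR adjusted p = 0.00936). Its partner Col5a1 spanned less, from 41.5 (WT P2) to 21.0 CPM (WT P5) and from 42.7 to 13.5 CPM in KO. Col3a1, the collagen of reticular fibres, lies next to Col5a2 on the other strand of chromosome 1 and was at 33.8, 6.69 and 2.48 CPM in WT and at 26.5, 12.3 and 0.593 CPM in KO. That is a ratio of P2 to P5 of 13.6 in WT and 44.8 in KO. Its estimate varied too much for the threshold in edgeR with all libraries and the filter. DESeq2 and edgeR without a filter called Col3a1.

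Collagen VI, a beaded microfibril around cells, did not share the order. Col6a1 and Col6a2 were highest in WT P5, at 7.75 and 9.75 CPM, and lowest in KO P5, at 2.56 and 3.45 CPM. Col6a3 was higher in P2 than in P5 in both genotypes, from 4.19 to 0.424 CPM in WT and from 2.49 to 1.16 CPM in KO. None of the 3 chains was called in any comparison in edgeR.

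**Figure D1:**
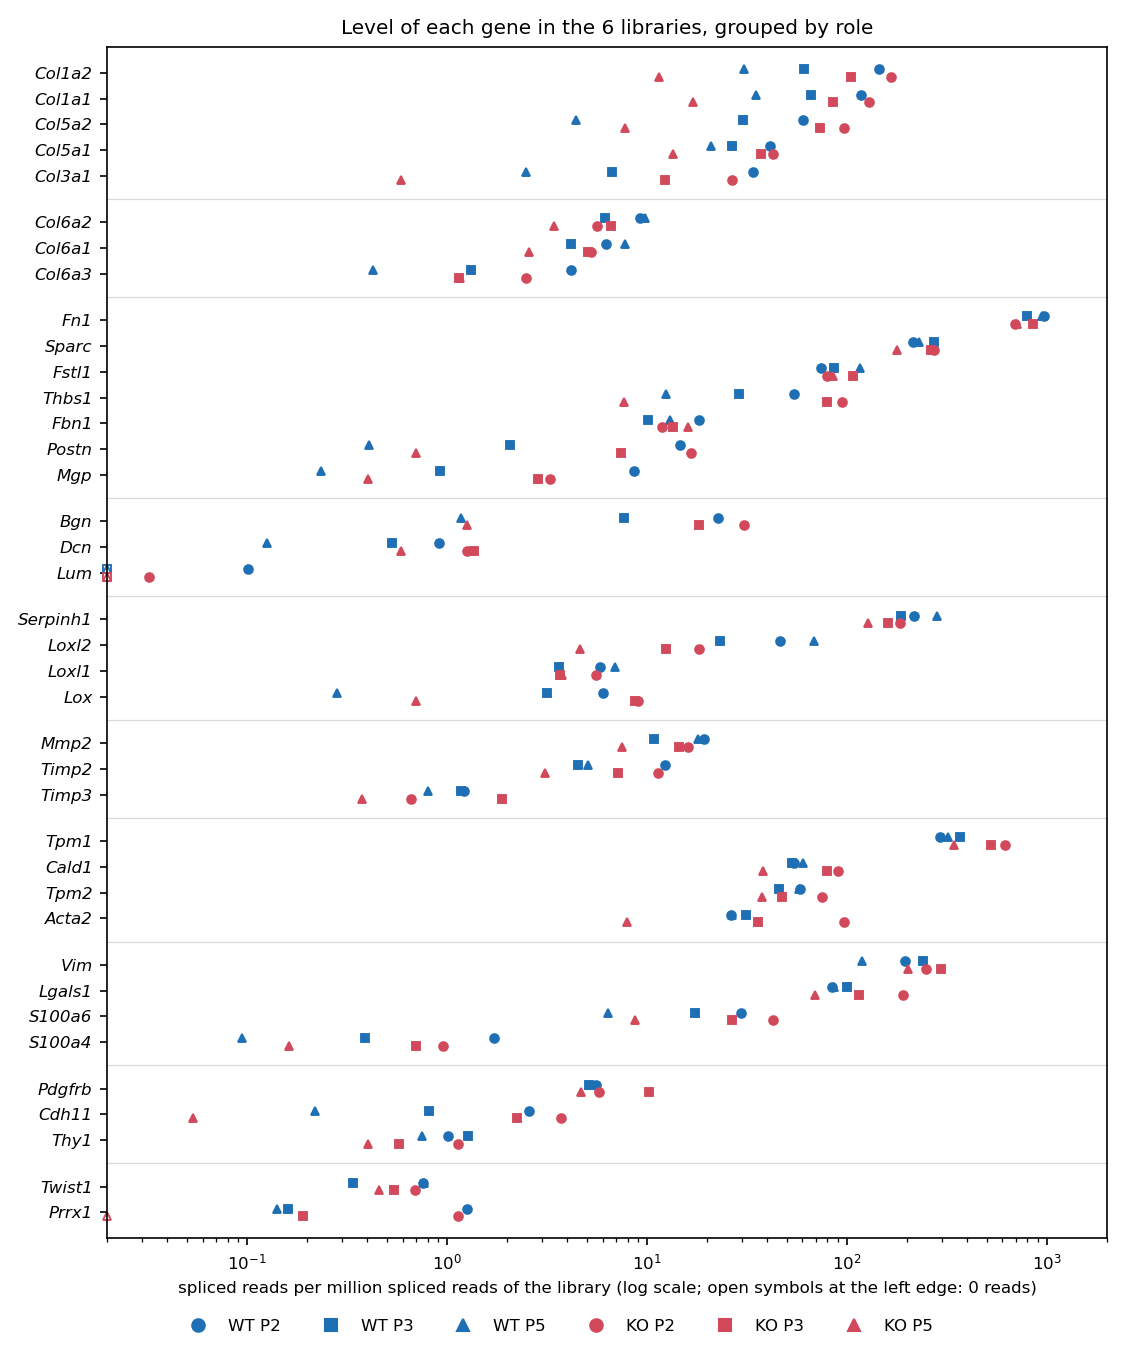
Level of the 38 analysed genes in each library, in spliced reads per 1000000 on a log axis, with a line of points per gene and the genes grouped by role. Colour gives the genotype (blue WT, red KO) and shape the title number (circle P2, square P3, triangle P5). For Col5a2, Postn, Bgn, Lox and S100a6 the triangles lie to the left of every circle and square, while for Fn1 and Sparc the 6 points lie close together.

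Among the matrix glycoproteins, Postn (periostin, a matricellular protein that binds collagen and fibronectin, chr3:54359267-54391041) was at 14.7, 2.08 and 0.409 CPM in WT and at 16.6, 7.39 and 0.700 CPM in KO. The P2 libraries exceeded P5 by 36.0 times in WT and 23.6 times in KO, with a log2 change of -4.89 (SE 0.45, adjusted p = 0.0182 in edgeR). Thbs1 (thrombospondin 1, an activator of latent TGF-beta) was at 54.4, 28.8 and 12.5 CPM in WT and at 94.7, 79.9 and 7.70 CPM in KO. Mgp (matrix Gla protein, an inhibitor of calcification) was at 8.59, 0.923 and 0.236 CPM in WT and at 3.26, 2.87 and 0.404 CPM in KO. Thbs1 and Mgp kept the same order of libraries in both genotypes. Both were called by DESeq2 and by edgeR without a filter, and missed the threshold in edgeR with all libraries and the filter.

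The other 4 glycoproteins did not fall with the title numbers in both genotypes. Fn1 (fibronectin, the scaffold on which collagen is laid down, chr1:71585473-71653280) was at 966, 799 and 951 CPM in WT and at 697, 852 and 711 CPM in KO, with a log2 change from P2 to P5 of 0.001 (SE 0.154), whose sign turned with DESeq2 and with its size factors. Fbn1 (fibrillin 1, of elastic microfibrils) was at 10.1 to 18.1 CPM over the 6 libraries, and its log2 change was -0.04 (SE 0.28). Sparc, a collagen-binding protein, was at 177 to 273 CPM, with KO P5 lowest. Fstl1, a secreted SPARC relative, was the only tested gene with both P5 libraries above both P2 libraries, from 74.0 to 116.8 CPM in WT and from 79.4 to 85.5 CPM in KO.

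Small leucine-rich proteoglycans sit on collagen fibrils. Bgn (biglycan, chrX:73483601-73495936) was at 22.6, 7.69 and 1.18 CPM in WT and at 30.6, 18.2 and 1.27 CPM in KO, so the P5 libraries of both genotypes were at about the same low level. Its log2 change was -4.40 from P2 to P5 (SE 0.31, edgeR adjusted p = 0.0105) and -3.29 from P3 to P5 (SE 0.30, edgeR adjusted p = 0.0472). Dcn (decorin) was at 0.909, 0.533 and 0.126 CPM in WT and at 1.26, 1.37 and 0.593 CPM in KO, where P3 was the highest. Lum (lumican) had 2 reads in WT P2, 2 in KO P2 and none in the others, where a count of 0 allows up to 0.0472 CPM (WT P5) to 0.0956 CPM (KO P3). Lum did not pass the filter.

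The enzymes that finish collagen split. Lox (lysyl oxidase, which starts the cross-links of collagen and elastin) was at 6.01, 3.18 and 0.283 CPM in WT and at 9.03, 8.70 and 0.700 CPM in KO. Its log2 change from P2 to P5 was -4.04 (SE 0.36, edgeR adjusted p = 0.0175). Its relatives did not share this fall in both genotypes. Loxl1 was at 3.64 to 6.96 CPM, with a log2 change of -0.13 (SE 0.31). Loxl2 was at 46.2, 23.2 and 68.6 CPM in WT and at 18.2, 12.5 and 4.61 CPM in KO. It thus fell in order in KO alone, and edgeR called it from P2 to P5 without WT P5, where KO P5 stands alone. Serpinh1 (the collagen chaperone HSP47) was at 218, 186 and 283 CPM in WT and at 185, 160 and 128 CPM in KO, with a log2 change from P2 to P5 of -0.06 (SE 0.22). For Loxl2 and Serpinh1, WT P5 was the highest and KO P5 the lowest of the 6 libraries. Of 18 other collagen-processing enzymes and chaperones none was called between P2 and P5 in edgeR with all libraries (Bmp1, lower in P5, was called without WT P5), 10 had a change below 0, and their median was -0.04 on the log2 scale. P4hb, a subunit of prolyl 4-hydroxylase, was at 382 to 428 CPM in all libraries and Pcolce, an enhancer of procollagen cleavage, at 76.8 to 143 CPM.

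Matrix turnover was represented by Mmp2, Timp2 and Timp3. Timp2, an inhibitor of metalloproteinases, was at 12.3, 4.51 and 5.09 CPM in WT and at 11.4, 7.17 and 3.10 CPM in KO. It was called from P2 to P5 by DESeq2 and not by edgeR with all libraries. Mmp2, a gelatinase, was at 19.2, 10.9 and 18.0 CPM in WT and at 16.0, 14.5 and 7.54 CPM in KO. Timp3 was at 0.377 to 1.88 CPM without a common order.

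Contractile genes had wider ranges in KO than in WT, a difference that was not tested. Acta2 (smooth muscle alpha-actin) was at 26.4, 31.3 and 26.7 CPM in WT and at 97.2, 36.0 and 7.97 CPM in KO, so the KO libraries spread to both sides of a narrow WT range. Tpm1 (tropomyosin 1, which lies along actin filaments) was at 291, 369 and 320 CPM in WT and at 616, 528 and 342 CPM in KO. Cald1 (caldesmon, an actin and myosin binding protein) was at 54.2, 52.9 and 60.1 CPM in WT and at 90.8, 79.3 and 38.0 CPM in KO, and Tpm2 at 45.8 to 58.4 CPM in WT and 37.8 to 75.3 CPM in KO. All 4 had their highest level in KO P2, and none was called in edgeR with all libraries. From P2 to P5 edgeR called Acta2 without WT P2, and Acta2 and Cald1 without WT P5.

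Of the small cytoplasmic and filament proteins, S100a6 (calcyclin, a calcium-binding protein of proliferating fibroblasts, chr3:90612894-90614414) was at 29.6, 17.5 and 6.38 CPM in WT and at 42.9, 26.6 and 8.73 CPM in KO. Its ratio of P2 to P5 was nearly equal in the genotypes, 4.65 in WT and 4.91 in KO, with a log2 change of -2.26 (SE 0.17, adjusted p = 0.0105 in edgeR). S100a4 (fibroblast-specific protein 1), a neighbour of S100a6, was at 1.72, 0.391 and 0.0943 CPM in WT and at 0.953, 0.701 and 0.162 CPM in KO, the same order at a level of 6 reads in each P5 library. Vim (vimentin, the mesenchymal intermediate filament) was at 194, 240 and 119 CPM in WT and at 249, 294 and 202 CPM in KO, so P3 was highest and P5 lowest in both genotypes. Lgals1 (galectin 1) was at 84.5 to 99.7 CPM in WT and at 192, 115 and 69.1 CPM in KO P2, P3 and P5.

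Of the surface proteins, Cdh11 (cadherin 11, of mesenchymal cell contacts) was at 2.58, 0.817 and 0.220 CPM in WT and at 3.72, 2.23 and 0.0539 CPM in KO, where KO P5 held 2 reads. Thy1 was at 0.404 to 1.28 CPM, and Pdgfrb, the receptor of pericytes and fibroblasts, was at 5.11 to 5.56 CPM in WT and 4.69 to 10.3 CPM in KO. The mesenchymal transcription factors were near the limit of detection. Twist1, counted over 1 intron, was at 0.337 to 0.770 CPM, and Prrx1 was at 1.26, 0.160 and 0.142 CPM in WT and at 1.13 and 0.191 CPM in KO P2 and P3, with no read in KO P5, which allows up to 0.0808 CPM. Prrx1 did not pass the filter, although its P2 libraries were the 2 highest.

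Levels of different genes can be compared only per intron, since a gene with more introns collects more spliced reads. Where introns of a gene are nested, the reads over a longer one are also counted for those inside it, so the levels per intron are given from exact counts, with these reads taken off. Per listed intron the mean level over the 6 libraries was then highest for Lgals1 (35.9 CPM), Serpinh1 (32.2 CPM), Sparc (26.4 CPM), Vim (23.9 CPM), Fn1 (17.8 CPM) and Tpm1 (16.1 CPM). With the deposited counts Serpinh1 (38.6 CPM) stood before Lgals1, and Tpm1 (25.7 CPM) before Vim and Fn1. Both were divided by all listed introns, nested ones included (8 of 16 in Tpm1, 1 of 5 in Serpinh1). This lowers genes with alternative introns in the exact counts, so the order is only rough. None of these 6 passed the test between P2 and P5 in edgeR with all libraries. Of the 5 that did, S100a6 was at 5.26 CPM per intron, Bgn at 1.94, Lox at 0.930, Col5a2 at 0.860 and Postn at 0.257. The lowest were Col6a3 (0.0374 CPM) and Lum (0.0111 CPM).

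Counted over the genes, 13 of the 36 tested had a lower level in P3 than in P2 and a lower one again in P5, in both genotypes, an order that 2.37% of all tested genes had. Both P2 libraries lay above both P5 libraries for 19 of the 36, against 11.6% of all genes, and below them for 1 (Fstl1), against 10.8%. The log2 change from P2 to P5 was below 0 for 34 of the 36 (49.3% of all genes) and below -2 for 13 (1.53% of all genes). An unadjusted p under 0.05 was reached by 19 of the 36, against 4.21% of all genes. The median log2 change was -0.88, beside 0.004 over all genes tested. These counts describe genes picked by name with earlier results of these libraries known.

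**Figure D2:**
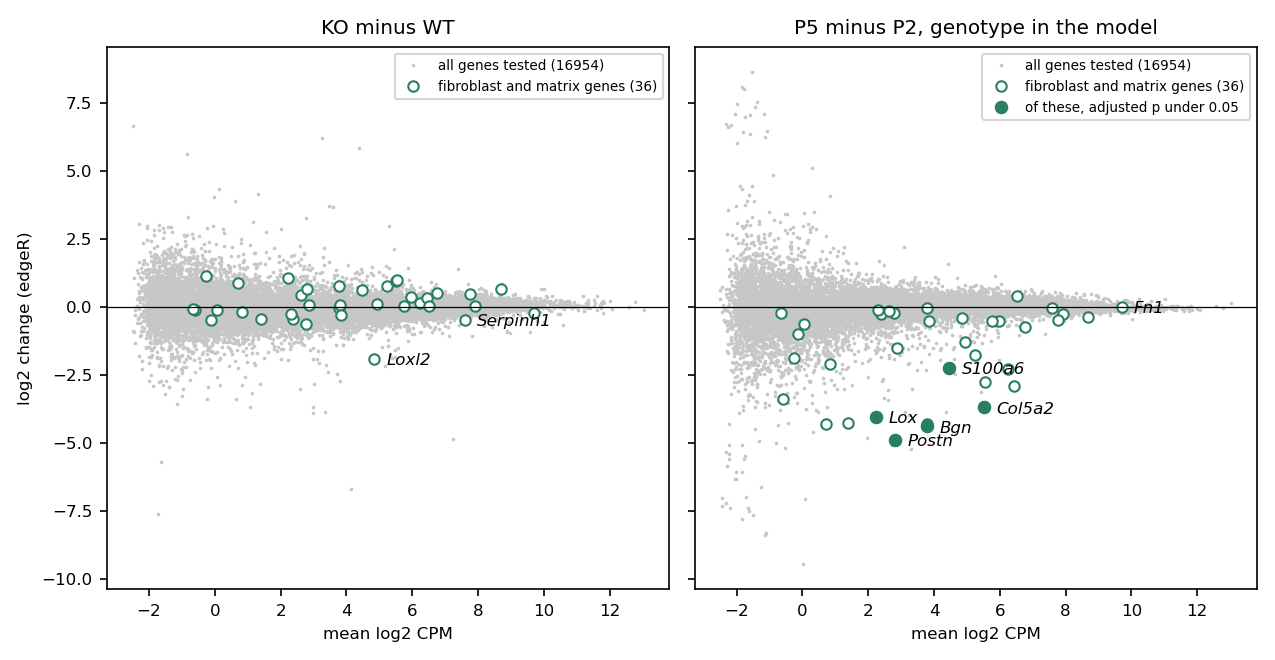
Log2 change in edgeR against mean log2 CPM for all 16954 genes tested (grey) and the 36 fibroblast and matrix genes tested (green circles, filled where the adjusted p was under 0.05), KO minus WT at left and P5 minus P2 at right. At right 34 of the 36 circles lie below 0 and the 5 filled ones lie between -2.26 and -4.89; at left no circle is filled.

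The smaller steps gave fewer calls. From P2 to P3 none of the 36 passed in edgeR, against 0.0059% of all genes, with 9 at an unadjusted p under 0.05 (5.23% of all genes), and DESeq2 called Postn alone (0.255% of all genes). From P3 to P5 Col5a2 and Bgn fell, against 0.0177% of all genes. Without KO P3 neither was called there, and without WT P3 only Col5a2 was. A test of any difference between the 3 numbers called Col5a2, Bgn and S100a6, against 0.0354% of all genes. In the change from P2 to P5, Postn, Bgn and Col5a2 passed whichever 1 of the 6 libraries was left out, while Lox and S100a6 were not called without WT P3 or without KO P3. The count of called genes was between 3 (without WT P3 or KO P3) and 15 (without WT P5). It was 6 without KO P2, 9 without KO P5 and 10 without WT P2. Where a library at P2 or P5 was left out, the remaining one was assumed to vary like the others.

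The knockout comparison gave no call among these genes. In edgeR none of the 36 passed between KO and WT, where 0.0177% of all genes did, and DESeq2 also called none of them, against 1.43% of all genes. An unadjusted p under 0.05 was reached by 4 of the 36, against 9.96% of all genes. The genotypes did not overlap for 2 genes, Loxl2 and Serpinh1, both lower in KO, against 15.3% of all genes. The median log2 change was 0.05, beside -0.006 over all genes.

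The largest differences below 0 were those of Loxl2 (log2 change -1.91, SE 0.50), Col6a2 (-0.64, SE 0.27) and Serpinh1 (-0.50, SE 0.17). Loxl2 was at 46.0 ± 22.7 CPM in WT (SD, n = 3) and at 11.8 ± 6.82 CPM in KO (SD, n = 3). The largest above 0 were those of Dcn (1.14, SE 0.70), Lox (1.04, SE 1.04) and Thbs1 (0.97, SE 0.80). None of these 6 passed, the smallest adjusted p being that of Loxl2, 0.422 in edgeR. The spread over the title numbers was thus larger than the difference between the genotype means for Lox and Thbs1. Leaving out 1 library in turn kept the 6 signs but moved the sizes: Lox went from 0.46 (without WT P5) to 1.83 (without WT P2), Dcn from 0.63 to 1.71 without the same libraries, and Thbs1 from 0.49 (without KO P2) to 1.56 (without WT P2). Loxl2 went from -2.39 (without KO P2) to -1.52 (without WT P5), Col6a2 from -0.81 (without KO P3) to -0.42 (without KO P5) and Serpinh1 from -0.63 (without KO P2) to -0.33 (without WT P5). With the title number as a block Thbs1 was at 0.60. None was called in any of these fits.

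**Figure D3:**
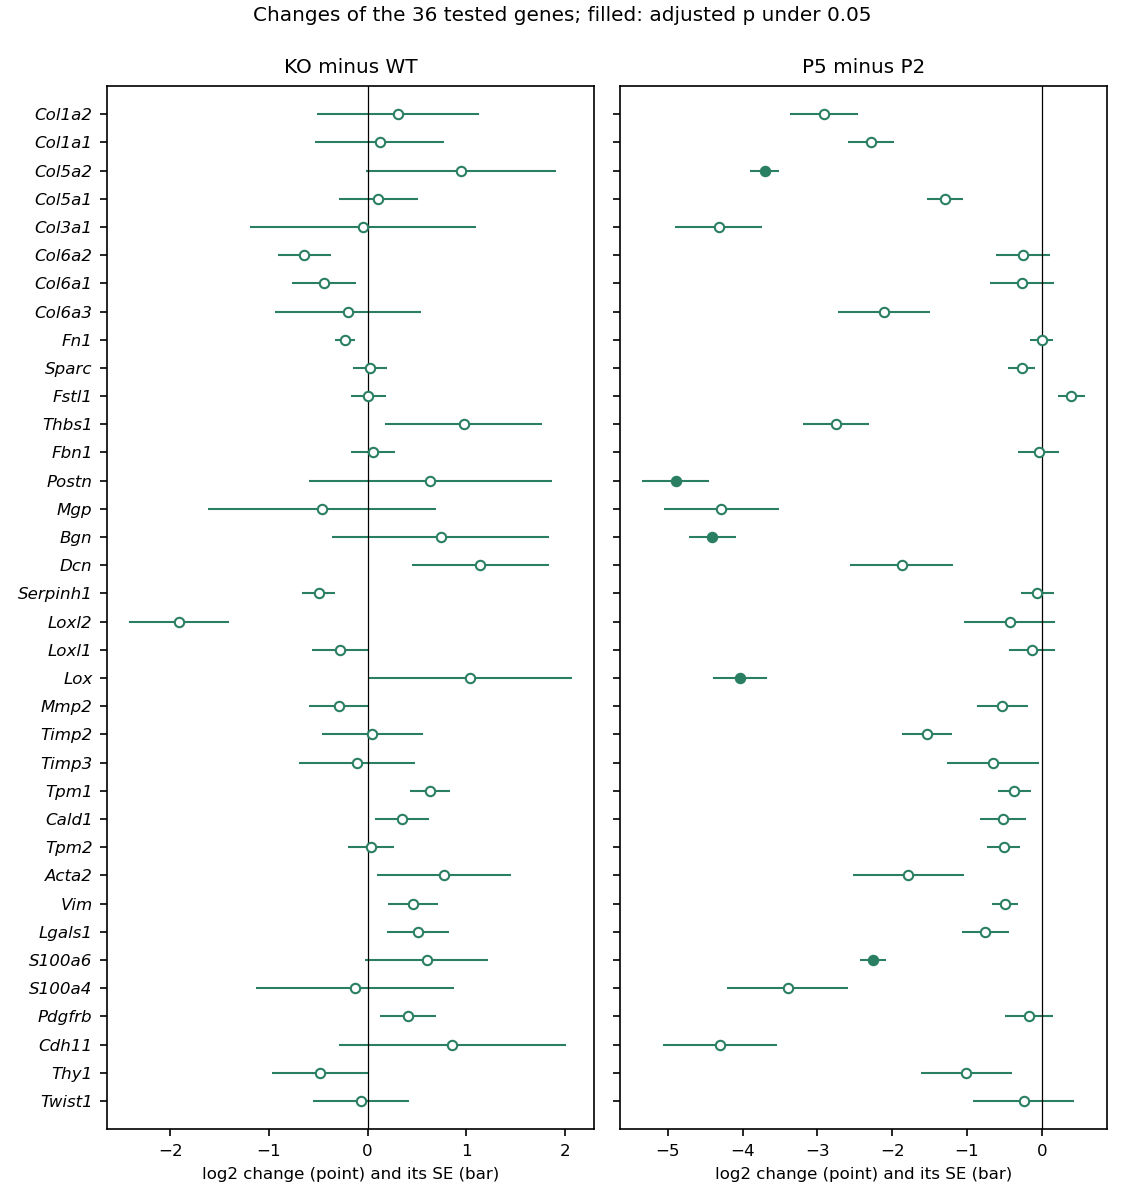
Log2 changes (points) with their SE (bars) for the 36 tested genes, KO minus WT at left and P5 minus P2 at right, ordered by role; filled points have an edgeR adjusted p under 0.05. The SE bars of most genes cross or come near 0 at left, while at right Col5a2, Postn, Bgn, Lox and S100a6 are filled, at -2.26 or lower.

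Unspliced reads come from the same libraries as the spliced reads and are no independent check on them. They were few for these genes: 19 of the 38 passed the filter and 16 had fewer than 20 such reads over all libraries. From P2 to P5 Bgn and Thbs1 fell, against 0.0598% of all genes. Unspliced reads of Bgn were at 15.7, 4.97 and 0 per 1000000 unspliced reads in WT and at 28.5, 13.2 and 1.54 in KO (log2 change -4.97, SE 0.80, edgeR adjusted p = 0.0316), and those of Thbs1 at 39.98, 22.4 and 11.7 in WT and at 66.6, 59.5 and 3.84 in KO (log2 change -2.58, SE 0.46, edgeR adjusted p = 0.0316). The order of libraries was that of the spliced reads for both genes. DESeq2 called neither, and 0.0% of all genes; in edgeR Bgn was lost without WT P2, KO P2 or KO P3, and Thbs1 without any of these or KO P5. The sign of the change from P2 to P5 was the same in spliced and unspliced reads for 18 of the 19 genes. The share of all genes with the same sign was not counted, so this number cannot be set against it. Between KO and WT no gene passed, against 0.0498% of all genes, with 4 of the 19 at an unadjusted p under 0.05 (9.01% of all genes), and none with DESeq2 (0.29% of all genes).

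Intron retention, the ratio of unspliced to spliced reads, could be tested in 156 introns of 17 of the genes. None differed between KO and WT in edgeR, against 0.0273% of all 95371 introns tested. An unadjusted p under 0.05 was reached by 4 of the 156, against 4.14% of all introns, and limma called none. The 3 smallest p were all in Fn1, led by the intron at chr1:71602498-71604969 (log2 odds -1.01, SE 0.41, edgeR adjusted p = 1.0), which spans an alternative exon. The spliced reads of that intron are only those that skip the exon, so its ratio also varies with inclusion of the exon. The other 2 were at chr1:71624345-71625973 (1.33, SE 0.63) and chr1:71593236-71595663 (-0.67, SE 0.33).

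Alternative exons of Fn1 varied although its level did not follow the title numbers. Fibronectin has 2 alternative type III repeats, known as EDA and EDB, each encoded by 1 exon that is included in the cellular form of fibroblasts and embryos and skipped in the plasma form of liver. Their lengths match exons of 270 bases (chr1:71603660-71603929) and 273 bases (chr1:71613763-71614035) found here from junctions. The 273-base exon was included in 77.7, 81.2 and 89.5% in WT P2, P3 and P5 and in 66.1, 69.8 and 89.3% in KO, by reads over its 2 inclusion junctions and the skipping junction. The P5 libraries of both genotypes lay above the other 4, and their exact binomial 95% intervals for counting error, 87.7 to 91.0% in WT P5 and 86.7 to 91.6% in KO P5, did not reach the next highest library (78.6 to 83.6% in WT P3). The 270-base exon was included in 83.7, 91.4 and 94.7% in WT and in 84.7, 82.5 and 92.0% in KO, with P5 again highest in each genotype and the interval of KO P5 (89.3 to 94.1%) overlapping that of WT P3. With 2 libraries per number the difference between numbers was not tested.

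Between the genotypes, inclusion of the 273-base exon was 82.8 ± 6.04% in WT and 75.1 ± 12.5% in KO (SD, n = 3; two-sided exact permutation p = 0.4, where 3 against 3 cannot go below 0.1). For the 270-base exon it was 89.9 ± 5.65% in WT and 86.4 ± 4.94% in KO (SD, n = 3; two-sided exact permutation p = 0.5). The difference between the means, KO minus WT, was -7.73 percentage points for the 273-base exon and -3.51 for the 270-base exon. Leaving out 1 library moved it from -14.9 (without KO P5) to -3.25 (without KO P2) for the first and from -6.65 (without WT P2) to -1.15 (without WT P5) for the second, and the counts as deposited gave -4.86 and -2.85. An 86-base exon of Vim was included in 96.4 to 97.9% in every library, with an exact p of 0.8. The adjusted p over the 6 exons tested was 0.6 for both Fn1 exons. The other 3, all in Tpm1, had an inclusion junction with no read and are not cassette exons by these reads.

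Cald1, chosen after its values were seen, had a junction share that was lowest in P5 in both genotypes, a difference that was not tested. Of the reads spliced to 1 acceptor (intron end 34741788 on chromosome 6), the share from the upstream of 2 donors was 48.5, 46.4 and 34.4% in WT P2, P3 and P5 and 60.7, 57.8 and 34.4% in KO. Both P5 libraries were the lowest. The reads behind it numbered 66 (WT P2) to 364 (KO P2). The exact binomial 95% interval was 28.8 to 40.4% in WT P5 and 24.7 to 45.2% in KO P5. The intervals of WT P2 (36.0 to 61.1%) and WT P3 (39.2 to 53.7%) overlap both of these. Those of KO P2 (55.5 to 65.8%) and KO P3 (49.6 to 65.7%) overlap neither.

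**Figure D4:**
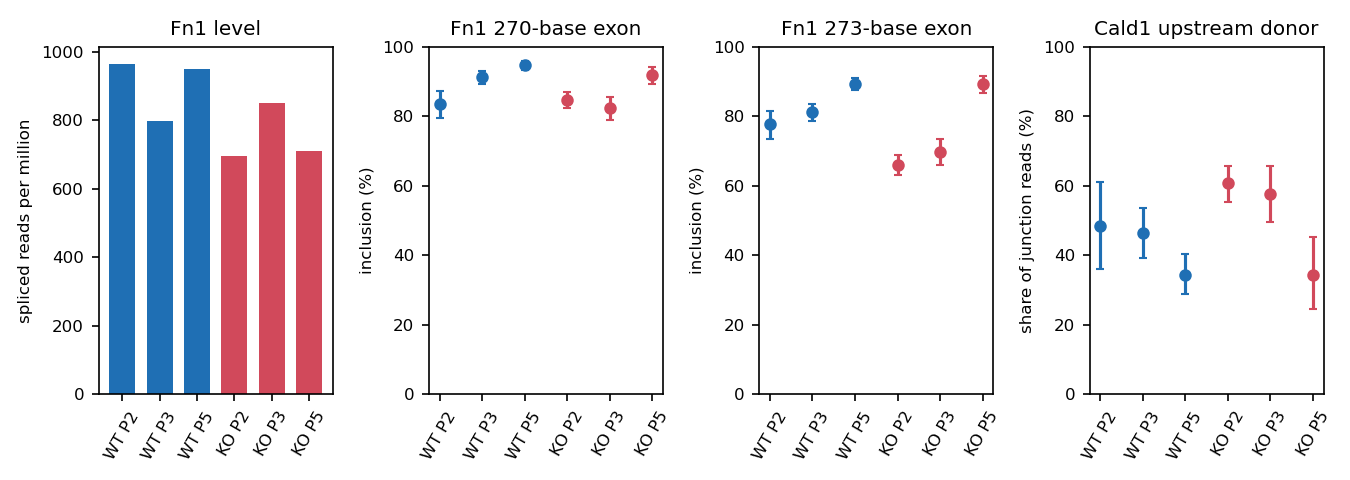
Fn1 level (bars, spliced reads per 1000000, 1 library each), inclusion of the 270-base and 273-base exons of Fn1 and the share of the upstream donor of Cald1 (points, percent, with exact binomial 95% intervals for counting error) in the 6 libraries, WT blue and KO red. Fn1 level lies between 697 and 966 in all libraries, while inclusion of the 273-base exon is 89.3 and 89.5% in the P5 libraries and 66.1 to 81.2% in the others.

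Other gene lists, drawn up with earlier results of these data known, were read beside these genes. Of 42 other interstitial matrix and fibroblast genes, 41 had listed introns and 38 were tested. None passed from P2 to P5 in edgeR with all libraries, 31 had a change below 0, and the median was -0.52 on the log2 scale. DESeq2 called 8 of them, all lower in P5, among them Col12a1, Fbln2 and Tnc, and edgeR called 5 without a filter, 8 without WT P5, 3 without WT P2 and 2 without KO P5. Both P2 libraries lay above both P5 libraries for 18 of the 38, beside 11.6% of all genes. Fbln1 (fibulin 1), the highest of them, was at 89.3, 88.5 and 127 CPM in WT and at 85.2, 84.3 and 63.0 CPM in KO, and Tpm4 at 50.01 to 77.7 CPM. Basement membrane genes, which ES cells themselves express, had a median of 0.09, no call in edgeR with all libraries (Col4a2, lower in P5, was called without WT P5) and a summed level of 2759 to 3317 CPM. Col18a1 and Agrn led them, at 655 to 1033 and 401 to 492 CPM. Of 17 TGF-beta pathway genes 1 fell, Ltbp2 (log2 change -2.31, SE 0.22, edgeR adjusted p = 0.0182), named after its value was seen; its protein is a microfibril component. Ltbp2 was not called without WT P3, without KO P2 or without KO P3. The 2 highest of that list, Ltbp4 and Smad4, were at 242 to 299 and 57.6 to 76.5 CPM. None of the 4 lists held a call between KO and WT in edgeR, while DESeq2 called Plod2, a lysyl hydroxylase, lower in KO, and Ccn1 and Myl9, of the other interstitial matrix and fibroblast genes, higher.

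Markers of the ES cells and of other cells that could be present beside them held no call between P2 and P5 in edgeR with all libraries. Pluripotency markers had 0 of 14 genes with both P2 libraries above both P5 libraries, 6 with a change below 0 and a median change of 0.13 on the log2 scale. DESeq2 called 3 of them, Esrrb, Klf4 and Tfcp2l1, all higher in P5, and edgeR without a filter called Klf4. The markers of smooth muscle and epithelium lay mostly below 0, with 6 of 7 (median -0.57) and 5 of 6 (median -0.67), as these genes did. Over all genes 49.3% lay below 0. Both P2 libraries lay above both P5 libraries for 1 of 7 smooth muscle and 0 of 6 epithelial markers. That order held for 19 of the 36 fibroblast and matrix genes and for 11.6% of all genes. Among the epithelial ones edgeR called Krt8 and Krt18 without WT P2 and Krt19 without WT P5, all lower in P5. The change was below 0 for 4 of 6 extraembryonic endoderm markers (median -0.32), 4 of 6 macrophage markers (-0.27), 3 of 5 endothelial (-0.15), 2 of 6 mesoderm (0.06) and 2 of 5 neural markers (0.13). Both P2 libraries lay above both P5 libraries for 2, 2, 2, 1 and 1 of these, in the same sequence of lists. The summed level was 20.8 to 40.6 CPM for 10 extraembryonic endoderm markers (highest Pth1r and Dab2), 7.33 to 10.3 CPM for 9 mesoderm markers (Tbx6, Eomes), 51.5 to 84.6 CPM for 8 smooth muscle markers (Smtn, Des), and 78.3 to 111 CPM for 8 endothelial markers (Pecam1, Tek). For 7 neural markers (Tubb3, Pax6) it was 49.8 to 61.6 CPM, for 8 macrophage markers (Cd68, Tyrobp) 17.5 to 30.4 CPM and for 6 epithelial markers (Epcam, Cdh1) 584.4 to 879.7 CPM. No marker with listed introns was at 0 in all libraries, none was called between KO and WT in edgeR with all libraries, and Sox2, Sox1 and Msgn1 were not analysed here. Between the genotypes DESeq2 called Tbx3, lower in KO, and edgeR called Utf1, higher in KO, without WT P3. For the fall of Col5a2, Postn, Bgn, Lox and S100a6 from P2 to P5, fewer cells that express them and less of their RNA per cell cannot be told apart in bulk RNA. The part of other cell types in it was not tested.

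**Figure D5:**
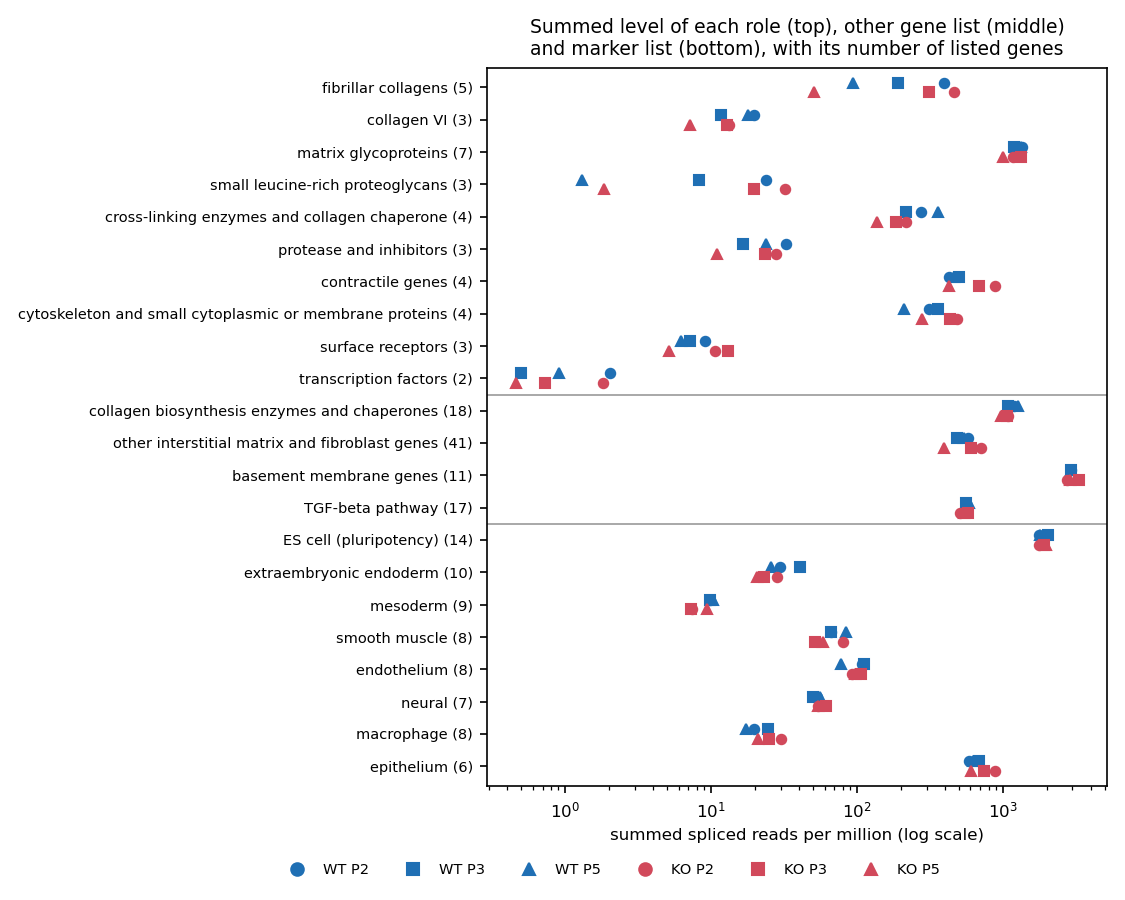
Summed level of each role (top block), other gene list (middle block) and marker list (bottom block) in the 6 libraries, in spliced reads per 1000000 on a log axis, with the number of genes in brackets; colour gives the genotype and shape the title number as in the plot of single genes. Fibrillar collagens and small leucine-rich proteoglycans spread by title number, with P5 lowest in both genotypes, while basement membrane and pluripotency lists stay within 2759 to 3317 and 1777 to 2027.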

How the data were processed

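The authors deposited 1 table per library with 3 raw read counts for each of 219945 introns (A1, A2 and Exon), a fraction (CovFrac, not used) and a percent (MSI), per the file headers, which do not define them. In all 1319670 values, within 0.01, the deposited percent was A1 + A2 as a share of A1 + A2 + 2 × Exon, so A1 + A2 was read as unspliced and Exon as spliced reads. The build is mm10, per the submitters' processing notes. Not given in the sources used here: aligner, counter, intron annotation and strandedness; so reads of overlapping or antisense genes may be shared (18 of the 719 introns lie in another gene's span too). Exon of an intron also held reads spliced over any longer listed intron around it (0 exceptions in 138703 values), so junction shares, unlike planned, were computed after subtracting these; 0.41% of such differences were below 0 and set to 0.

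Gene positions were those of RefSeq GRCm38.p6; strands came from the RefSeq promoter table or, where missing, from the introns. Counts per gene were tested with edgeR 4.0.16 (TMM, filterByExpr, quasi-likelihood F test, adjusted p under 0.05 over all genes), with genotype alone for KO minus WT and with number and genotype for P contrasts. Retention used the interaction of read kind with genotype for introns with at least 20 reads in every library. It was fitted on the deposited counts, without the subtraction for nested introns. Exon inclusion was compared by exact permutation. Steps were tested on simulated data. CPM in the text is per 1000000 spliced reads without TMM; intervals and the limit of 3 counts for a 0 cover counting error only. Alternatives were DESeq2 1.42.0, limma 3.58.1, other scalings, filters and intron sets, exact junction counts (added after seeing the data), a replicate block and leaving out each library. Log2 changes are printed for called genes and for the 3 largest KO minus WT rises and falls and the 4 smallest P changes; other genes are named at most 2 per list. The genes, lists and tests were chosen with earlier results of these data known.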

Additional observations from a re-analysis of the deposited data

Results flagged for a closer look

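For 7 genes the P5 library was above P2 in 1 genotype and below it in the other. Counting intervals excluded equality in both genotypes. How many of all genes did the same was not counted, so this cannot be read as particular to these genes. The intervals cover counting error of summed reads only. Reads over several or nested introns count more than once (for Tpm1 exact counts were 61.75 to 64.0% of the sum), so the intervals are too narrow. Each value is the level in P5 over that in P2, from 1 library each, so the difference between the genotypes was not tested. In WT P5 was higher and in KO lower for Loxl2 (1.49 in WT, 0.253 in KO), Serpinh1 (1.30 and 0.689), Col6a1 (1.25 and 0.484), Cald1 (1.11 and 0.418), Tpm1 (1.10 and 0.554) and Sparc (1.07 and 0.650). Fbn1 went the other way, with 0.720 in WT and 1.34 in KO. Of the 7, Serpinh1 binds procollagen in the endoplasmic reticulum, Loxl2 cross-links collagen and Tpm1 and Cald1 are actin-bound.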

How the results depend on the processing

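Postn, Bgn, Col5a2, Lox and S100a6 stayed below 0 from P2 to P5 in every alternative run, and DESeq2 size factors, library sizes without TMM, introns in 1 gene only and exact junction counts called the same 5. DESeq2 called 13 of the genes and edgeR without a filter 10. With the title number alone the counts from P2 to P5, P3 to P5 and for any difference were 0 among these genes and 0 among all genes, where P2 to P3 also gave 0. Over all genes P2 to P5 gave 73 (DESeq2) and 37 (no filter), P2 to P3 44 (DESeq2, 1 of these genes), P3 to P5 49, 1 and 13 (DESeq2, library size, no filter; 8, 1 and 5 of these genes) and any difference 94 and 26 (DESeq2, no filter). Any difference called 12 of these genes with DESeq2, 8 without a filter, and 5 each with DESeq2 size factors and introns in 1 gene. Between KO and WT all genes gave 220 calls with DESeq2, 7 without a filter and 5 with exact counts. Unspliced reads gave 30 calls (DESeq2) and 155 (no filter, 2 of these genes, Loxl2 and Thbs1); from P2 to P5 0 (DESeq2) and 31 (no filter), with 0 and 5 of these genes. Retention calls over all introns were 9 with at least 10 unspliced reads and 0 with limma.

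Leaving out each library gave 3 to 15 of these genes from P2 to P5 (3 to 123 of all genes), 0 to 10 from P3 to P5 (0 to 65), 1 to 13 for any difference (1 to 91), and 0 from P2 to P3 (0 to 22). KO minus WT gave 0 of these genes, with 0 to 31 of all. Unspliced reads gave 0 to 7 of these genes from P2 to P5 (0 to 76 of all) and 3 to 251 of all genes between KO and WT, and retention 7 to 26 introns. The changes near 0 turned: Fn1 was -0.001 (DESeq2), -0.006 (DESeq2 size factors) and -0.003 (number alone), and -0.14 to 0.15 without 1 library; Serpinh1 was 0.014 with number alone and -0.50 to 0.35, Fbn1 -0.49 to 0.44 and Loxl1 -0.54 to 0.25 without 1 library. The difference in inclusion of the Vim exon was -0.65 to 0.10 percentage points. The causes were not tested. All 152 level values under other scalings moved by no more than 1 SD over the 3 libraries of the genotype. That SD holds the spread between title numbers, and the TMM factors were 0.973 to 1.04, so a larger move was hardly possible.

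Whether the title numbers pair the libraries could not be decided. Deviations from the genotype mean correlated at 0.064, 0.068 and 0.017 between WT and KO libraries of the same number. Between libraries of unlike number the values were -0.129 to 0.060, and not every library correlated best with its own number. Deviations from a mean of only 3 libraries depend on each other, so values of this size do not settle the question. With the number as a replicate block, KO minus WT called 8 of all genes (3 without the block) and 73 in unspliced reads (5 without it). None of them was among these genes. The shallowest library, WT P2, sets the precision of low genes: 3 reads there are 0.152 CPM.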

Other observations

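Tpm1 and Tpm2, which encode tropomyosins with alternative first and internal exons, and Serpinh1 were looked at after their values were seen. Of the Tpm1 reads spliced to 1 acceptor from 3 alternative upstream donors, the share from the donor nearest to the acceptor was 48.1, 35.1 and 38.6% in WT P2, P3 and P5 and 23.4, 33.0 and 43.3% in KO. KO P2, the library with the highest Tpm1 level, had the lowest share (exact binomial 95% interval 21.9 to 24.9%), and WT P2, with the lowest level, the highest (43.6 to 52.7%). P2 was thus highest in WT and lowest in KO. For Tpm2 the less used of 2 donors took 5.79 to 12.6% of reads, and for Serpinh1 the less used donor took 5.01 to 7.22%, with WT and KO overlapping for both.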
